A study of Mus musculus with 2 samples.

Results

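Mouse genes named Zfp followed by a number encode proteins with zinc fingers, most of them of the C2H2 type. The genes described here are those with such a symbol, other than Zfp36, that had at least 300 UMIs (unique molecular identifiers, each standing for 1 captured RNA molecule) summed over all barcodes of both libraries. The rule takes 246 of the 367 Zfp symbols and of the 31253 genes in the files. Members were thus selected on their UMI totals, which are given as a description. Zfp72 and Zfp971, with 307 UMIs each, lay just inside the limit, and Zfp287 with 291 and Zfp111 with 286 lay just outside. Of the symbols left out, 100 had 1 to 299 UMIs and 21 had none.

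C2H2 zinc finger proteins read DNA through arrays of fingers, and many mouse members also carry a KRAB domain. The KRAB domain recruits the corepressor TRIM28, which brings in the H3K9 methyltransferase SETDB1, HP1 proteins and the NuRD complex, and this machinery is best known for silencing retroelements and imprinted loci. KRAB zinc finger genes sit in clusters that grew by duplication, and several of these clusters carry H3K9 methylation themselves.

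The cells were mouse thymocytes taken by magnetic beads against CD25, a receptor chain found on early CD4- CD8- (double-negative, DN) thymocytes and on regulatory T cells. There was 1 library from WT mice and 1 from SETDBf/fCD4-Cre mice, called cKO. The labels do not say whether Setdb1 or Setdb2 is floxed, nor the age or number of the animals. Cre under CD4 control acts from about the end of the DN stage, so DN cells are the cells least likely to have lost the gene. Reads were tagged at the 3' end, so counts outside a deleted stretch check nothing. Setdb1 itself was at 24.3 (WT) and 25.5 (cKO) CPM, which are UMIs scaled to the gate's total, in Foxp3-positive cells. DP-like cells gave 30.4 and 29.3, and DN-like cells 33.3 and 33.4. In agonist-signalled cells it was at 36.0 CPM in WT (50 UMIs) and 20.7 in cKO (28 UMIs), a log2 fold of -0.68, and in post-selection-like cells at 27.4 (10 UMIs) and 37.4 (20 UMIs). There are no replicates, so differences between genotypes were not tested, and every interval below is a 95% interval for counting error only.

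The WT file held 7852 barcodes with 89370968 UMIs, and the cKO file 8461 with 76668166. After filters 6989 WT cells (median 7700 UMIs) and 7372 cKO cells (median 4653 UMIs) were kept, and 13 kept barcodes occurred in both libraries. Cells were gated on marker UMIs. The gates held, in WT and cKO, 279 and 190 early DN-like cells, 1015 and 695 DN-like, 605 and 434 cycling Cd8-negative, 432 and 388 cycling Cd8-positive, 1979 and 2951 DP-like (CD4+ CD8+), 106 and 165 post-selection-like, 177 and 189 agonist-signalled, 63 and 66 mature conventional-like, and 274 and 270 Foxp3-positive. The steps meant to remove B cells and myeloid or stromal cells took 196 and 1209 WT cells and 133 and 1093 cKO cells, most of which were thymocytes. A narrower version took 37 and 14 WT and 16 and 19 cKO cells, and results that it alters are named below. Rag1 was at 1477 and 1544 CPM in the DP-like gate against 20.3 and 31.3 in the Foxp3-positive gate. Ikzf2, a regulatory T cell gene, was at 1360 and 1045 CPM in the Foxp3-positive gate against 109 and 90.5 in the DP-like gate. It was at 1511 and 1593 CPM in agonist-signalled, 1088 and 797 in post-selection-like and 883 and 715 in mature conventional-like cells. Ikzf2 thus sets the Foxp3-positive gate apart from DP-like cells but not from these 3 gates. Foxp3 is the transcription factor that defines regulatory T cells. Of the Foxp3-positive cells, 86 in WT and 95 in cKO rested on a single Foxp3 UMI, and 37 in each library also held Rag1, Rag2, Ptcra or Dntt UMIs. In this gate the B markers Ms4a1 and Pax5 were at 0 in both libraries, as were the NK markers Klrb1c and Ncr1. The B markers together gave 34 UMIs in WT and 33 in cKO, or 16.9 and 19.1 CPM, of which Cd79b held 30 and 25. The 5 NK and innate markers summed to 224 CPM in WT and 147 in cKO, the 7 myeloid markers to 126 in each, and the 3 haemoglobin genes to 0.496 and 0. Of the 255 and 217 myeloid marker UMIs, Cst3 held 252 and 215. Cst3 was at 167 and 159 CPM in DP-like cells. The part these play in the results was not tested.

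The members together gave 722800 UMIs, 0.435% of all UMIs, with 0.432% in WT and 0.44% in cKO. Single members ranged from 307 to 33894 UMIs with a median of 1479.5, and 80 of them had fewer than 1000. The 10 members with most UMIs held 24.41% of the total. They were Zfp706 (33894 UMIs), Zfp207 (23441), Zfp644 (22050), Zfp422 (17195), Zfp292 (16333), Zfp148 (15585), Zfp106 (12371), Zfp871 (11958), Zfp330 (11891) and Zfp91 (11707). Several of these have known work outside KRAB repression. Zfp207 escorts BUB3 to kinetochores, Zfp644 binds the G9a and GLP H3K9 methyltransferases, Zfp148 binds GC-rich promoters, Zfp106 binds RNA and Zfp91 is a ubiquitin ligase.

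Translated coding sequences from the reference annotation held a KRAB A-box pattern in 121 of the 246 members. Only the longest annotated protein of each was searched. A looser pattern was held by 130 members, so some members counted below as without KRAB may hold one. The KRAB members had a median of 12 C2H2 pattern matches (range 2 to 23), and 92 of them had at least 10. The 125 others had a median of 8 (range 0 to 36), with Zfp142 at 36 and Zfp703, Zfp330 and Zfp839 at 0. In chromosome order 88 KRAB members (72.7%) lay next to a gene named Zfp and a number, against 43 others (34.4%). Symbols with a trailing letter, such as Zfp119a beside the KRAB member Zfp959, were not counted, so both are lower limits. The KRAB members were also the rarer transcripts, with a median of 1156 UMIs against 2435. Of the 10 most abundant members, Zfp871 alone held the pattern. The plot of fingers against UMIs shows both classes.

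**Figure D1:**
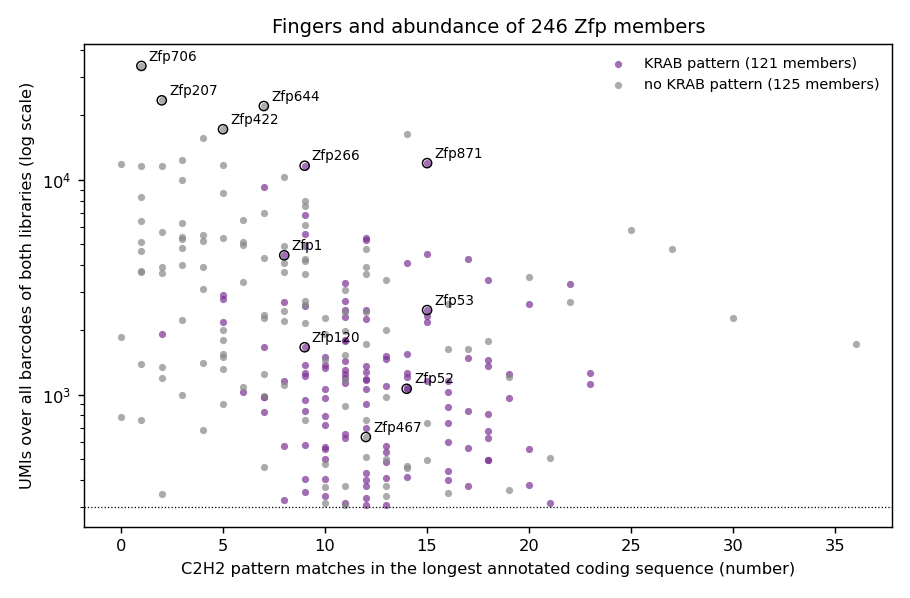
Each point is 1 of the 246 members, with the number of C2H2 pattern matches on the x axis and the UMIs over both libraries on a logarithmic y axis; purple points hold a KRAB A-box pattern and grey points do not, and circled points are named. The KRAB members have a median of 12 fingers and 1156 UMIs, and the dotted line marks the limit of 300 UMIs.

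Across stages the members' share of RNA was highest in DP-like cells. Summed over members it was 6957 CPM in WT and 7139 in cKO there, 5956 and 6010 in post-selection-like cells and 5119 and 5010 in DN-like cells. It was 3947 and 4138 in Foxp3-positive cells, and lowest in cycling Cd8-positive cells with 3605 and 3522. The order of these 5 gates was the same in both libraries. Depth moved with it, since the median was 2487 and 2264 UMIs per cell in DP-like cells against 26956.5 and 25183.5 in cycling Cd8-positive cells, and the part of depth was not tested.

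DN-like and DP-like cells could be compared within each library for 215 members with at least 50 UMIs over both gates in each library. Log2 ratios are of CPM with 5 added, and a member was counted when it was at least 2-fold apart in the same direction in WT and in cKO. The median ratio of members, DN-like over DP-like, was -0.36 in WT and -0.40 in cKO, against -0.19 and -0.22 over all 9432 genes. Members at least 2-fold higher in DP-like cells numbered 6 (7.9% of all genes passed), and those higher in DN-like cells numbered 2 (5.41% of all genes). The ratios had the same sign in both libraries for 188 members.

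Zfp821 was furthest toward DP-like cells, with 2.58 CPM in DN-like and 20.7 CPM in DP-like cells of WT, and 2.40 and 27.0 CPM in cKO. It was higher still in post-selection-like cells, at 38.4 and 46.7 CPM, on 14 and 25 UMIs. The KRAB member Zfp101 went from 10.8 to 35.5 CPM in WT and from 10.3 to 41.1 in cKO. Zfp770 went from 13.9 to 40.2 CPM in WT and from 11.3 to 41.5 in cKO. Zfp410, an activator of the NuRD helicase gene Chd4, went from 27.1 to 70.5 CPM in WT and from 29.4 to 75.9 in cKO. The KRAB member Zfp846 went from 35.0 to 88.6 and from 32.2 to 84.4 CPM. Zfp292 went from 108 to 234 and from 104 to 251 CPM. In all 6 the level in DP-like cells of either library lay above the DN-like level of both.

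The 2 members past the limit toward DN-like cells hold no KRAB pattern. Zfp704 fell from 44.9 CPM in DN-like to 15.1 in DP-like cells of WT and from 41.2 to 13.2 in cKO, with 2.76 CPM or less in the mature conventional-like gate. Zfp428 fell from 30.6 to 11.4 and from 29.4 to 11.8 CPM. With the narrow removal steps 1 member in place of 2 passed 2-fold. The next in order, Zfp239, Zfp362, Zfp608 and Zfp523, were higher in DN-like cells by log2 ratios of 0.70 to 0.93 over the 2 libraries. With CPM added as above, these ratios were below 2-fold in each. Zfp608, reported to repress Rag1 and Rag2, was at 6.06 and 7.36 CPM in DN-like cells, 1.58 and 1.82 in DP-like cells, and 8.43 and 16.2 in Foxp3-positive cells.

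**Figure D2:**
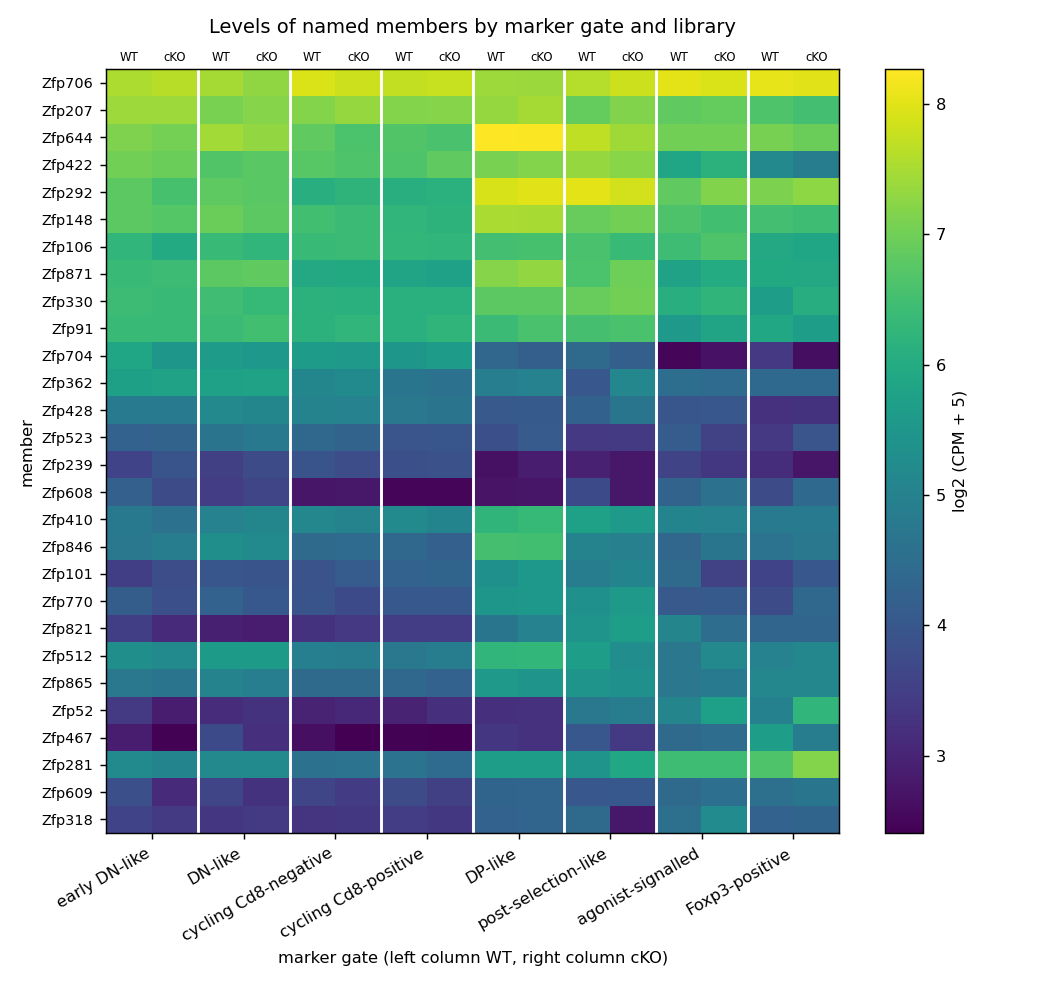
Heat map of log2 (CPM + 5) for 28 members named by UMI total or by stage, in rows, against 8 marker gates in columns, each gate split into WT on the left and cKO on the right. Zfp644 and Zfp292 are brightest in the DP-like and post-selection-like columns, Zfp467 and Zfp281 in the Foxp3-positive columns, and Zfp52 in the agonist-signalled and Foxp3-positive columns.

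**Figure D3:**
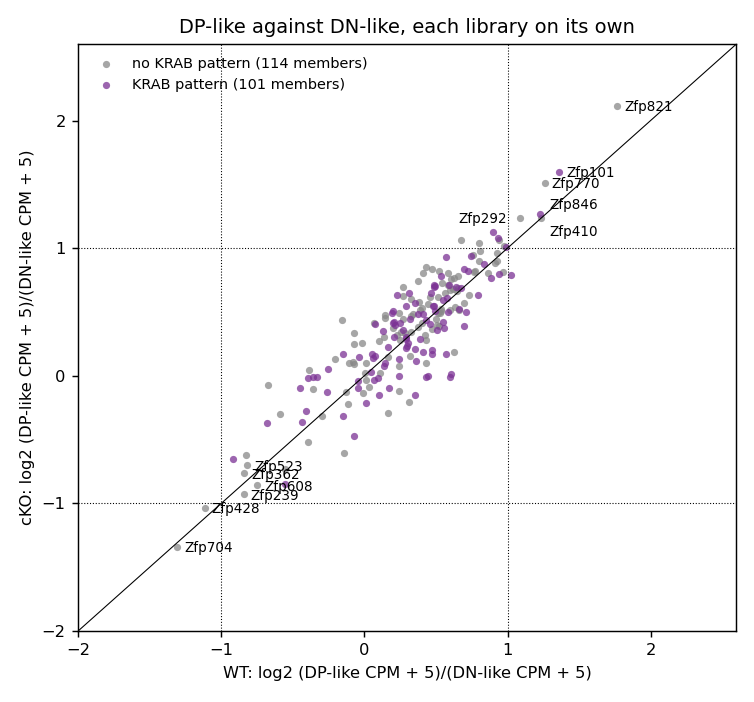
Each of 215 members is plotted by its log2 ratio of DP-like over DN-like CPM (each + 5) in WT on the x axis and in cKO on the y axis, with KRAB members in purple and the diagonal drawn; dotted lines mark 2-fold. Zfp821, Zfp101, Zfp770, Zfp846, Zfp410 and Zfp292 lie past 2-fold at the upper right, and Zfp704 and Zfp428 at the lower left.

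Foxp3-positive cells held less of the members' RNA than DP-like cells. The median log2 ratio of Foxp3-positive over DP-like, over 181 members, was -0.67 in WT and -0.68 in cKO, against -0.37 and -0.38 over all 8600 genes. Members at least 2-fold higher in DP-like cells numbered 31 (17.1% of the members, 11.4% of all genes). Zfp422 gave 131 and 139 CPM at the DP-like stage and 30.8 and 24.4 in Foxp3-positive cells. The KRAB member Zfp398 was at 139 and 143 against 35.2 and 31.9 CPM. Only 2 members were at least 2-fold higher in Foxp3-positive cells in both libraries (1.1% of members, 5.34% of all genes). These were Zfp467, with 5.10 against 45.6 CPM in WT and 4.41 against 24.4 in cKO, and Zfp52, with 4.22 against 26.8 CPM in WT and 4.41 against 71.4 in cKO. Scaling so that the median of all genes is 0 lowers the 31 to 8, and leaving out mitochondrial and ribosomal protein genes lowers it to 17.

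Zfp281, a regulator of pluripotency genes in embryonic stem cells, was at 46.6 and 47.0 CPM in DP-like and 93.9 and 90.7 in mature conventional-like cells, log2 ratios of 0.94 and 0.88 that are just under 2-fold. Its Foxp3-positive level was 96.2 CPM in WT and 139 in cKO. Over 172 members, 15 were at least 2-fold higher in DP-like than in mature conventional-like cells (9.98% of all genes) and 0 were the other way (3.05% of all genes). The mature conventional-like gate held under 100 cells per library, so no genotype count was taken there. The gate also held RNA of genes high in regulatory T cells. Tnfrsf18 was at 276 and 251 CPM, against 61.8 and 51.5 in DP-like and 670 and 682 in Foxp3-positive cells. Ctla4 was at 133 and 208 CPM, against 31.3 and 33.6 in DP-like and 281 and 333 in Foxp3-positive cells. Whether the gate holds regulatory T cells without a Foxp3 UMI was not tested. Between Foxp3-positive and mature conventional-like cells 0 of 48 members passed 2-fold in either direction (1.13% and 0.105% of all genes), and Zfp52 was highest on the Foxp3-positive side with log2 ratios of 0.76 and 0.60.

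The genotypes were compared gate by gate over members with at least 50 UMIs in the gate, and a member was counted when its CPM, with 5 added, differed at least 1.5-fold. In Foxp3-positive cells 93 of the 246 members were measured. Their median log2 fold of cKO over WT was 0.00, against -0.01 over 6668 genes. At least 1.5-fold higher in cKO were 5 members (5.38% of those measured, 2.37% of all genes), and 3 were lower (3.23%, against 3.36% of all genes). The 5 were Zfp52, Zfp120, Zfp53, Zfp1 and Zfp329, and the 3 were Zfp580, Zfp467 and Zfp444. The other 85 members lay within 1.5-fold.

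Zfp52 had the highest fold of the members in Foxp3-positive cells. It had 54 UMIs in WT and 123 in cKO, which is 26.8 CPM (20.1 to 35.0) and 71.4 CPM (59.3 to 85.1), a ratio of 2.66 (1.92 to 3.74). The log2 fold of 1.26 ranged from 1.14 to 1.59 over 14 other settings, of which the 2 that move the UMI floor leave a fold as it is. In agonist-signalled cells Zfp52 had 40 and 64 UMIs, or 28.8 and 47.2 CPM, a ratio of 1.64 (1.09 to 2.50). The log2 fold there was 0.63, and 0.29 as a mean of per-cell CPM, which is below 1.5-fold. Mature conventional-like cells gave 5 and 17 UMIs. Post-selection-like cells gave 8 and 13 UMIs, or 21.9 and 24.3 CPM, a ratio of 1.11 (0.426 to 3.09), so the level there was near that of WT Foxp3-positive cells in both libraries. At the earlier stages Zfp52 was low in both libraries, at 4.22 and 4.41 CPM in DP-like, 3.81 and 4.62 in DN-like and 2.80 and 3.48 in cycling Cd8-negative cells. Early DN-like cells gave 17 and 5 UMIs, or 5.62 and 2.32 CPM. The level in WT therefore already differed between gates, and the cKO level lay above it in the agonist-signalled, mature conventional-like and Foxp3-positive gates.

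The share of Foxp3-positive cells with a Zfp52 UMI was higher in cKO with all UMIs and after each cell was thinned to 2000 UMIs. Thinned, a UMI was found in 16 of 269 from WT (5.95%, interval 3.44 to 9.48) and in 27 of 267 from cKO (10.1%, interval 6.77 to 14.4). Unthinned, the shares were 15.3% and 31.5%, at median depths of 5794 and 5476.5 UMIs, and no cell held more than 3 Zfp52 UMIs in WT or 5 in cKO. Agonist-signalled cells gave 2.82% (5 cells) and 10.2% (19 cells) thinned, and 17.5% and 22.8% unthinned, so in WT they lay below the Foxp3-positive share thinned and above it unthinned. DP-like cells gave 0.765% and 0.604% thinned and 1.06% and 1.15% unthinned, an order that turned, and DN-like cells 0.986% and 1.15% thinned. The thinned shares rest on few cells, and the 2 intervals in Foxp3-positive cells overlap.

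Zfp52 lies in a run of Zfp genes. In the RefSeq order of GRCm38.p6 the run reads Zfp677, Zfp54, Zfp51, Zfp53, Zfp52, Zfp948 and Zfp983, all of them members except Zfp948. The longest annotated proteins of Zfp52 and Zfp53 are 70.5% identical over 555 aligned residues, and those of Zfp52 and Zfp51 69.7% over 694. These are identities of proteins and not of the 3' ends that were read. How reads that match more than 1 such copy were counted was not tested. Zfp53 had 57 and 101 UMIs in Foxp3-positive cells, or 28.3 and 58.6 CPM, a ratio of 2.07 (1.48 to 2.92). In mature conventional-like cells it had 7 and 34 UMIs, a ratio of 4.69 (2.05 to 12.5). Unlike Zfp52, it was also present at the DP stage, with 25.5 CPM (145 UMIs) in WT and 37.1 CPM (286 UMIs) in cKO, a ratio of 1.46 (1.19 to 1.79). DN-like cells gave 16.7 and 20.7 CPM. Zfp51 had 10 and 21 UMIs in Foxp3-positive cells, too few to count as measured, and 13.5 and 18.0 CPM in DP-like cells. Zfp54 had 1 and 6 UMIs in Foxp3-positive cells, a ratio of 7.02 (0.851 to 323). Zfp677 had 14 and 13 and Zfp983 had 11 and 11. The neighbours of the pair were therefore at or below 21 UMIs in that gate.

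Promoter windows from 250 bases before to 50 after the start were matched in the RefSeq table of GRCm38.p6 for 203 members. These windows held a median of 14 CG dinucleotides, against 13 over 17492 protein-coding promoters. On either strand the GC box GGGCGG was in 46.8% of member windows and in 46.3% of all, and the ETS core CCGGAAG in 20.2% against 11.9%. The motif TGACGTCA was in 3.45% against 2.34% and the STAT core TTCNNNGAA in 16.8% against 7.83%. Members that arose by duplication share sequence, so their windows are not independent. The windows of Zfp52, Zfp53 and Zfp467 are shown because of their levels in Foxp3-positive cells. Zfp52 and Zfp53 are neighbours that were both higher there in cKO. Beside Zfp52, Zfp467 was the other member at least 2-fold higher in Foxp3-positive than in DP-like cells in both libraries. In Foxp3-positive cells Zfp467 was lower in cKO. Capitals mark the 1 GC box in each, and the windows hold 5, 9 and 18 CG dinucleotides.
Zfp52 (chr17:21535289-21535588, plus strand): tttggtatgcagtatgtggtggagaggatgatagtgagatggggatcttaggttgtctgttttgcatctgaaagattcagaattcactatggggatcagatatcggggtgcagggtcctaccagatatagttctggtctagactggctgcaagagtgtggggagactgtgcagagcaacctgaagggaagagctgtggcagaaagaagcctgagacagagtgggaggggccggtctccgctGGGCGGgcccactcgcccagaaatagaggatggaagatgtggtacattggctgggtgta
Zfp53 (chr17:21488738-21489037, plus strand): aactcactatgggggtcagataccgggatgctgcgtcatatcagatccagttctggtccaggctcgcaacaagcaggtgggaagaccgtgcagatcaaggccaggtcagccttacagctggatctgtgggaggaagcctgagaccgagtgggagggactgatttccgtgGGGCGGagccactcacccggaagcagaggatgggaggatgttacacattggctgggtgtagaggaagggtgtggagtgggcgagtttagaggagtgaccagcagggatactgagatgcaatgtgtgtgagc
Zfp467 (chr6:48445041-48445340, minus strand): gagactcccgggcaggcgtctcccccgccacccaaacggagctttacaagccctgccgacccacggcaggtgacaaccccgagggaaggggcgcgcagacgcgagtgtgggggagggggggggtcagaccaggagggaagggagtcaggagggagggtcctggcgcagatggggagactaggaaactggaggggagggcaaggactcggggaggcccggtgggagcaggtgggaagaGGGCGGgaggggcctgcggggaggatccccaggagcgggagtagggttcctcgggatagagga

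In a pairwise alignment the Zfp52 and Zfp53 windows were identical at 171 of 217 aligned bases (78.8%). Zfp52 and Zfp467 were identical at 137 of 236 (58.1%). The window of Zfp53 holds 1 ETS core and that of Zfp52 none, and no STAT core was found in the 3 windows. A match of letters is a description and not a binding site.

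Zfp1 and Zfp120 are KRAB members without a neighbour that has a Zfp symbol, though Zfp120 lies next to the gene model Gm14139. Zfp1 had 53 and 89 UMIs in Foxp3-positive cells, or 26.3 and 51.6 CPM, a log2 fold of 0.86. It was also among the highest folds in DN-like cells, with 26.8 and 40.4 CPM and a log2 fold of 0.51. DP-like cells gave 37.2 and 46.6 CPM. Zfp120 had 17 and 37 UMIs in Foxp3-positive cells, or 8.43 and 21.5 CPM, a log2 fold of 0.98 that was 1.90 with gates set on thinned cells. Its DN-like levels were 13.1 and 20.4 CPM, a log2 fold of 0.48, and its early DN-like levels 10.6 and 17.1, whereas DP-like cells gave 19.7 and 20.2. For both genes the cKO value was thus the higher one in DN-like cells too, with log2 folds under the 1.5-fold limit. These folds are taken after CPM were added to each level, and are smaller than the plain ratios of the levels. Zfp329, without a KRAB pattern, had 24 and 39 UMIs in Foxp3-positive cells, and its log2 fold of 0.71 was past 1.5-fold under 12 of 14 other settings. Zfp329 was far higher in DP-like cells, at 70.5 and 70.4 CPM, than in Foxp3-positive cells, at 11.9 and 22.6.

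Zfp467, a regulator of the choice between fat and bone cell fates, had 92 UMIs in WT and 42 in cKO Foxp3-positive cells, or 45.6 CPM (36.8 to 56.0) and 24.4 CPM (17.6 to 32.9). The log2 fold of -0.79 stayed between -0.90 and -0.67 over 14 other settings. In DN-like cells Zfp467 had 73 and 24 UMIs, or 8.19 and 4.11 CPM, and in agonist-signalled cells 16.6 and 17.7 CPM. Its thinned share of Foxp3-positive cells with a UMI was 9.67% in WT (6.41 to 13.8) and 5.62% in cKO (3.18 to 9.10). Zfp580 had 38 and 14 UMIs and a log2 fold of -0.86, which became 0.20 with gates set on thinned cells. Zfp444 had 63 and 33 UMIs and a log2 fold of -0.59, which was -0.28 with the narrow removal steps and past 1.5-fold under 8 of 14 settings. The values of Zfp580 and Zfp444 thus changed with how cells were gated.

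**Figure D4:**
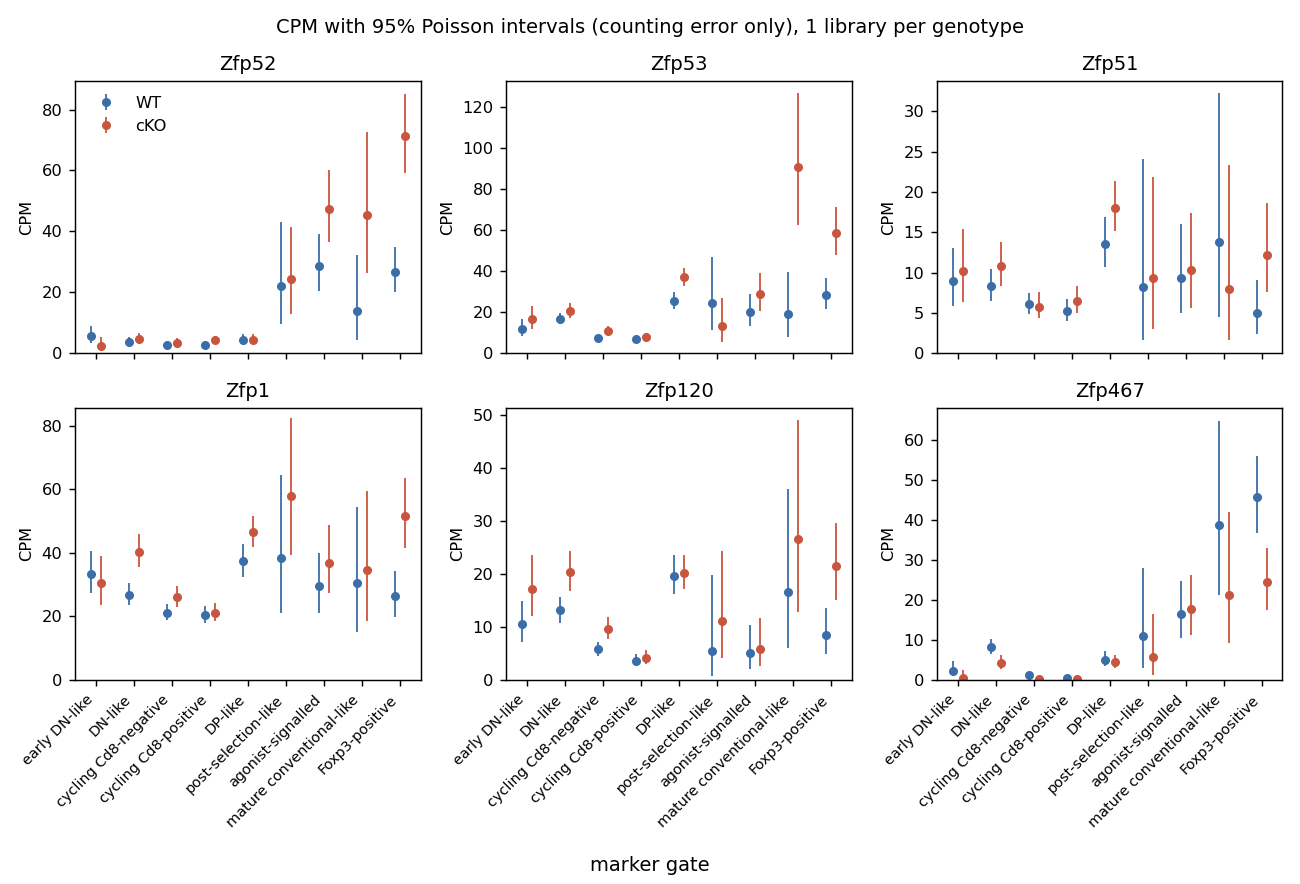
Levels in CPM (y axis) of 6 members by marker gate (x axis), WT in blue and cKO in red, with 95% Poisson intervals for counting error and 1 library per genotype. Zfp52 is below 6 CPM in the first 5 gates of both libraries and reaches 71.4 CPM in cKO Foxp3-positive cells, while Zfp467 is higher in WT there.

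The other gates held few members past 1.5-fold. In agonist-signalled cells 67 members were measured, and 3 were higher (2.12% of all genes) and 1 lower (2.05% of all genes). The higher ones were Zfp87 (18 and 33 UMIs), Zfp318 (26 and 44 UMIs), needed for IgD expression in B cells, and Zfp52, and the lower one was Zfp579 (39 and 22 UMIs). In post-selection-like cells 25 were measured, with 0 higher (4.28% of all genes) and Zfp593 lower (31 and 27 UMIs, 85.0 and 50.5 CPM; 3.47% of all genes). In DP-like cells 214 were measured, with 0 higher (0.31% of all genes) and 2 lower (0.342% of all genes). Zfp827, which recruits NuRD to telomeres, had 52 and 29 UMIs in DP-like cells, or 9.14 and 3.76 CPM, a log2 fold of -0.69 that shrank to -0.49 with the narrow removal steps. Zfp940 had 38 and 19 UMIs there, or 6.68 and 2.47 CPM, a log2 fold of -0.65. The highest DP-like log2 folds, 0.48 for Zfp3 and 0.47 for Zfp53, were under 1.5-fold, though that of Zfp3 was 0.80 with 1 CPM added in place of 5.

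In DN-like cells 213 members were measured and 0 passed 1.5-fold in either direction (0.411% of all genes higher, 0.58% lower), with Zfp1 at 0.51 and Zfp467 at -0.53 the extremes on the log2 scale. Early DN-like cells gave 126 measured members, 0 higher (0.88% of all genes) and Zfp84 lower (75 and 30 UMIs, 24.8 and 13.9 CPM; 2.52% of all genes). Cycling Cd8-negative cells had 218 measured and 0 past the limit (0.265% of all genes higher, 0.214% lower), and cycling Cd8-positive cells had 206 and 0 (0.158% and 0.284%). The CPM added to each level shrinks the folds of members with few CPM, so a count of 0 does not show that these were unchanged. Zfp467, for example, was at 8.19 CPM in WT and 4.11 in cKO DN-like cells and was not counted. With fewer CPM added, the DN-like and both cycling gates each had a count above 0, as given below. In all 8 gates the median of the members lay between -0.10 and 0.03 on the log2 scale. The plot of folds by gate shows that the members lie mostly inside the range of all genes.

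**Figure D5:**
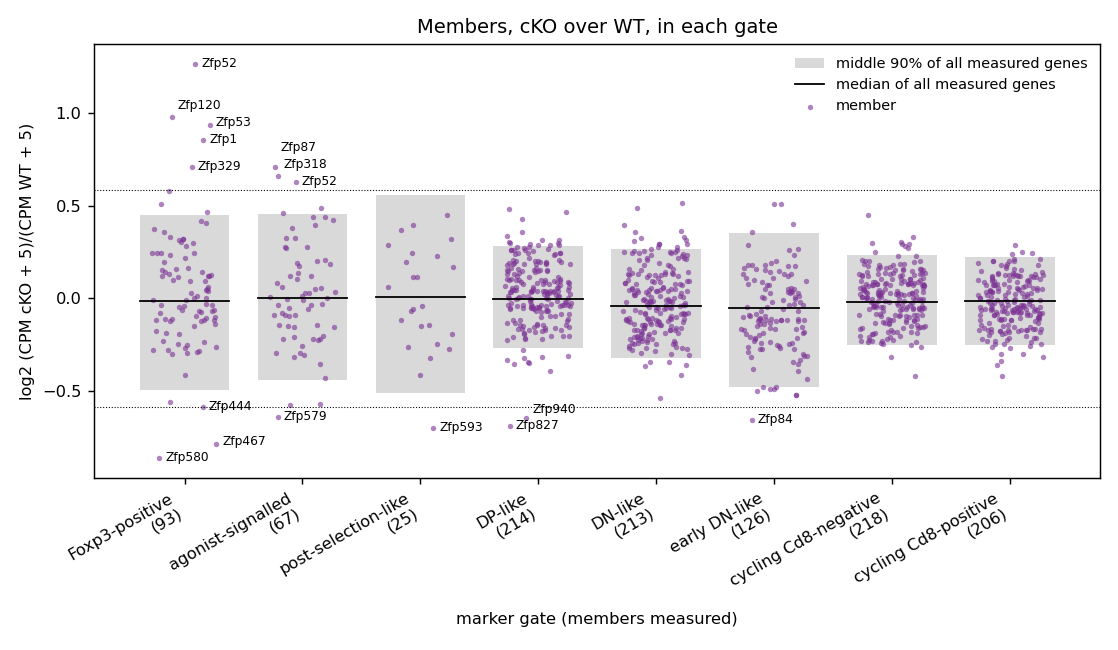
Log2 fold of cKO over WT (CPM + 5, y axis) of each measured member, as a purple point, in 8 marker gates with the number measured in brackets; the grey box spans the middle 90% of all measured genes, the black line is their median, dotted lines mark 1.5-fold and members past it are named. The Foxp3-positive gate holds Zfp52 at 1.26 and Zfp580 at -0.86, and no member of the cycling gates passes the dotted lines.

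Signs were compared across 6 gates (Foxp3-positive, agonist-signalled, DP-like, DN-like and both cycling gates), in all of which 66 members were measured. The early DN-like gate, with 126 members measured, was not among the 6. Of the 66 members, 5 were higher in cKO in all 6 gates (5.55% of all genes), namely Zfp1, Zfp672, Zfp622, Zfp53 and Zfp52. Zfp148 was the 1 member lower in all 6 (8.43% of all genes), by log2 folds of -0.16 to -0.04. Zfp622 takes part in the maturation of the large ribosomal subunit, and its folds in these gates were 0.03 to 0.19. The 6 gates come from the same pair of libraries, so they do not repeat one another, and the early DN-like gate gave the other sign for Zfp1 (-0.11), Zfp672 (-0.49), Zfp622 (-0.19) and Zfp52 (-0.54).

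By class, 24 KRAB members were measured in Foxp3-positive cells, with a median log2 fold of 0.13, 4 higher and 0 lower. The 69 members without the pattern had a median of -0.04, 1 higher and 3 lower. With the looser pattern the medians in Foxp3-positive cells were 0.12 (27 measured) and -0.02 (66 measured), and the counts higher and lower were the same. Over all genes of that gate the median was -0.01, with 2.37% higher and 3.36% lower, and the difference between the classes was not tested. With the floor lowered to 20 UMIs, 71 KRAB members had a median of 0.08 with 7 higher and 5 lower, and 95 others had -0.04 with 4 and 4, against 3.08% higher and 4.66% lower among all 8779 genes at that floor. In DP-like cells the medians were 0.04 and 0.03, and in DN-like cells 0.01 and -0.05. Members next to a gene named Zfp and a number had a median of 0.11 in Foxp3-positive cells (36 measured) and the rest -0.06 (57 measured). Of the related Zbtb family, 16 of 40 genes were measured in Foxp3-positive cells with a median of -0.16, and 0 passed 1.5-fold. Of 21 Zkscan and Zscan genes, 4 were measured and 0 passed.

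Proteins that KRAB members work with, and genes of related silencing pathways, were followed as a list of 32 genes. The list was chosen by role with earlier results of these data known, so its counts are a description. In Foxp3-positive cells 28 of them were measured. Of these, 4 were at least 1.5-fold higher in cKO and 1 was lower, where 2.37% and 3.36% of all genes were. Resf1, a partner of SETDB1 in retroelement silencing, went from 158 to 900.3 CPM (319 and 1552 UMIs). Atf7ip, which stabilises SETDB1, went from 112 to 244 CPM. Tasor, the scaffold of the HUSH complex, went from 46.1 to 81.2 CPM, and Trim24, a relative of Trim28, from 30.3 to 98.0. Uhrf1, which guides maintenance DNA methylation, was the lower one, with 53.1 and 29.0 CPM. Trim28 itself was at 92.3 and 80.1 CPM. In agonist-signalled cells 3 of 26 measured were higher (2.12% of all genes) and 1 lower (2.05%). The higher ones were Resf1 (98.7 and 396 CPM), Atf7ip (85.0 and 198) and Trim24 (27.4 and 67.9), and the lower one was Setdb1. In post-selection-like cells 3 of 22 were higher (4.28% of all genes) and 1 lower (3.47%). Atf7ip (137 and 320 CPM), the NuRD subunit Gatad2b (98.7 and 178) and the TRIM28 relative Trim33 (49.3 and 87.9) were higher there, and the deacetylase Hdac1 (145 and 91.6) was lower. In DP-like cells 1 of 30 measured passed, Atf7ip with 191 and 306 CPM (0.31% of all genes higher, 0.342% lower). Resf1 was the 1 of 31 that passed in cycling Cd8-negative cells, with 48.8 and 78.5 CPM (0.265% of all genes higher). In DN-like cells 0 of 31 passed, in early DN-like cells 0 of 30 and in cycling Cd8-positive cells 0 of 31. The other 23 measured genes lay within 1.5-fold in Foxp3-positive cells.

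Members with a known silencing target, and Zfp335 for its part in T cell maturation, were chosen for their role, outside the naming rule. Zfp809, which directs silencing of murine leukaemia virus-type elements, had 9 and 7 UMIs in Foxp3-positive cells and 7.20 and 6.88 CPM in DP-like cells. Zfp445, which protects imprinted methylation, was at 28.8 and 37.1 CPM in Foxp3-positive and 48.3 and 48.4 in DP-like cells. Zfp568, a repressor of an Igf2 promoter, had 5 and 2 UMIs in Foxp3-positive cells. Zfp932, which acts at endogenous retroviruses, was at 12.9 and 10.4 CPM there. Zfp638, which works with HUSH on unintegrated retroviral DNA, was at 77.4 and 71.9 CPM, and Zfp335, needed for the maturation of thymic T cells, at 9.92 and 9.86. Of these 6, none had a log2 fold, taken with CPM added as above, past 1.5-fold in Foxp3-positive or DP-like cells. However, Zfp809, Zfp568, Zfp932 and Zfp335 had under 50 UMIs over both libraries in Foxp3-positive cells.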

How the data were processed

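Raw UMI counts per gene and barcode were deposited by the authors, written by Cell Ranger 6.1.1 per the file headers. CASAVA 1.8 and Seurat 4.0.3 appear per the submitters' processing notes. For the counts, the genome build was not given in the sources used here. The promoter coordinates are those of RefSeq GRCm38.p6.

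In Python 3.11.15, a barcode was kept when it had 500 or more genes, 1000 or more UMIs and no more than 10% of them mitochondrial. Doublets were scored by scrublet in scanpy 1.11.5 with an expected rate of 0.06. Its threshold of 0.29 in WT was used for both libraries, since its own threshold called 1 cKO barcode, and 148 and 129 barcodes were removed. Each cell took the first marker gate it met, and UMIs were summed per gate and library and divided by the gate total (CPM). A fold is the log2 ratio of cKO to WT after 5 was added to each CPM. Sums carry exact Poisson, ratios exact binomial and shares Clopper-Pearson intervals. UMIs of 1 gate in 1 library are 1 sample, so there is no test and the intervals leave out differences between mice and captures. The scripts were tested on simulated data: in Foxp3-positive cells 100% of genes made 3-fold higher and 97% of those made 3-fold lower were recovered past 1.5-fold. Of unchanged genes 1.26% passed 1.5-fold there. In DP-like and DN-like cells 100% of the higher genes were recovered in each, and 92% and 93% of the lower ones. The simulated counts held counting error only, and changes smaller than 3-fold were not simulated.

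KRAB and C2H2 patterns were searched in translated GENCODE vM21 coding sequences, since no protein table was used here. Named members were Zfp52, the 10 with most UMIs, the 5 highest and 5 lowest folds in the Foxp3-positive, mature conventional-like, DP-like and DN-like gates, and the members furthest apart between stages. The members, lists and rules were chosen with earlier results of these data known. The narrow removal steps and the comparison of Foxp3-positive with DP-like cells were added after seeing the data.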

Additional observations from a re-analysis of the deposited data

How the results depend on the processing

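No paired analysis was possible because each genotype has 1 library, and no library could be left out. In Foxp3-positive cells Zfp52, Zfp53, Zfp1, Zfp120 and Zfp467 kept their direction and stayed past 1.5-fold under the alternatives run that recompute a fold. The UMI floors leave folds as they are, and at 200 UMIs none of these 5 counted as measured. Zfp580 turned to a log2 fold of 0.20 with gates on thinned cells. Most other changes are in small counts, and their causes were not tested.

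Counts below are of members, at least 1.5-fold for genotype and at least 2-fold in both libraries between stages. The share of all genes can move with the setting too, and is given only for Foxp3-positive cells at a floor of 20 UMIs. The counts therefore describe how the member counts move and are not set against all genes. With 1 CPM added, 53 members were higher in DP-like than in Foxp3-positive cells, 16 higher in DP-like than in DN-like and 5 the reverse; in cKO there was 1 higher and 1 lower in DN-like, 1 lower in cycling Cd8-positive, 2 higher and 1 lower in cycling Cd8-negative, 2 higher in DP-like, 2 higher and 4 lower in early DN-like, and 3 lower in agonist-signalled cells. With 10 CPM added, the first count was 18, that of DN-like over DP-like 1, and 0 were lower in DP-like, early DN-like or agonist-signalled cells and 0 higher in agonist-signalled cells. With a floor of 20 UMIs, Foxp3-positive cells had 11 higher (3.08% of all genes) and 9 lower (4.66% of all genes). At that floor post-selection-like cells had 8 and 6, early DN-like 8 lower, agonist-signalled 4 lower, and 4 members were higher in Foxp3-positive than in DP-like cells. With a floor of 200 UMIs, 0 passed in Foxp3-positive cells in either direction or over DP-like, 0 in agonist-signalled in either direction, 0 lower in DP-like or early DN-like, and the Foxp3-positive median of members less that of all genes was -0.053.

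With the median of all genes set to 0, the 31 members higher in DP-like than in Foxp3-positive cells became 8. Without mitochondrial and ribosomal protein genes it was 17, DP-like over DN-like was 3 and the reverse 6, and 1 was lower in DN-like, 2 higher in early DN-like and 3 lower in agonist-signalled cells. As means of per-cell CPM, DP-like over DN-like was 10 and the reverse 1, with 5 lower in Foxp3-positive, 4 lower in agonist-signalled, 1 lower in DN-like, 1 higher and 2 lower in early DN-like and 1 higher in post-selection-like cells. The stricter cell filter gave 0 lower in DP-like, 1 higher in early DN-like and 2 lower in agonist-signalled cells, and the looser filter 2 lower in agonist-signalled cells. Doublets kept gave 2 lower in agonist-signalled cells and 1 member in DN-like over DP-like. Gates on thinned cells gave 4 higher in DN-like, 1 higher and 0 lower in DP-like, 1 higher and 6 lower in early DN-like, 2 lower in cycling Cd8-positive cells, and 0 in Foxp3-positive over DP-like. Stricter gates gave 1 in DN-like over DP-like, 1 lower in DN-like, 1 lower in DP-like, and 2 lower in agonist-signalled and in early DN-like cells. Foxp3-positive cells without Rag1, Rag2, Ptcra and Dntt UMIs had 1 lower. The narrow removal steps gave 0 lower in agonist-signalled, 1 lower in DP-like and 1 in DN-like over DP-like.

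Some settings left a gate under 100 cells in a library and gave no value: the agonist-signalled gate on thinned cells, and the post-selection-like gate on thinned cells, with the stricter filter and with stricter gates. With a floor of 200 UMIs the post-selection-like gate had too few members. Depth limits the post-selection-like, agonist-signalled and Foxp3-positive gates most, where 25, 67 and 93 of 246 members reached 50 UMIs against 214 in DP-like cells.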
